A study of Mus musculus with 9 samples.

Results

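The genes described here are 4 that the mouse beta cell uses to sense glucose: Slc2a2, G6pc2, Mlxipl and Pcx. They were taken by name from a table of 56748 genes measured by RNA sequencing of pancreatic islets, and all 4 had enough counts to be tested among 17276 genes. The islets were primary islets of wild-type C57bl/6 mice, in 3 groups of 3 libraries. Particle islets received a cytokine cocktail (IL-1 beta, TNF-alpha and IL-6) for 48 hours together with polydopamine-coated mesoporous silica nanoparticles, named PD-G-MSNPs in the labels. Inflamed islets received the cocktail for 48 hours without particles, and control islets received neither. The study asked whether the particles protect islets from the cytokines, and it holds no group given particles without cytokines. Whether the 3 libraries of a group came from separate animals or islet preparations the labels do not say, so p-values measure only the variation among these libraries, some of which may be technical.

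Beta cells release insulin in proportion to blood glucose, and the signal is the rate at which glucose is metabolised. Glucose enters the mouse beta cell through GLUT2, the low-affinity transporter encoded by Slc2a2, and is phosphorylated to glucose-6-phosphate. G6pc2 encodes an islet glucose-6-phosphatase of the endoplasmic reticulum that turns glucose-6-phosphate back to glucose and so works against that step. Mlxipl encodes ChREBP, a transcription factor that glucose metabolites activate and that pairs with MLX on DNA. Pcx encodes pyruvate carboxylase, the mitochondrial biotin enzyme that makes oxaloacetate from pyruvate and feeds the pyruvate cycles linked to insulin release.

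In the build of the deposited tables (GRCm39) the genes lie on 4 chromosomes, all on the plus strand. Slc2a2 (ENSMUSG00000027690) spans chr3:28752052-28785508, G6pc2 (ENSMUSG00000005232) chr2:69041417-69058185, Mlxipl (ENSMUSG00000005373) chr5:135118744-135167236 and Pcx (ENSMUSG00000024892) chr19:4560500-4671780. RefSeq promoter sequence was at hand for all 4 on the earlier build GRCm38.p6, with 1 start for Slc2a2 and 2 starts for each of the other genes. Because the 4 genes fell together in cytokine-treated islets, the 250 bases before the most upstream start of each gene are shown, and for Mlxipl also those before its second start, 17001 bases downstream. The upstream Mlxipl start is the one described for the ChREBP-beta isoform, and counts per gene do not separate the starts. On GRCm38.p6 the windows are chr3:28697653-28697902 for Slc2a2, chr2:69210823-69211072 for G6pc2, chr5:135089640-135089889 and chr5:135106641-135106890 for Mlxipl, and chr19:4510222-4510471 for Pcx. Each is printed 5′ to 3′ on the plus strand, with matches to the searched motifs in capitals.
Slc2a2: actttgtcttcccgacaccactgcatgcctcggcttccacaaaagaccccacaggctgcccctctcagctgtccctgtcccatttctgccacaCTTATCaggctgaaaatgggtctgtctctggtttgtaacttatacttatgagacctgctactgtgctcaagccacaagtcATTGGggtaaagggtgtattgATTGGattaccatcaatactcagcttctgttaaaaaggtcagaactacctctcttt
G6pc2: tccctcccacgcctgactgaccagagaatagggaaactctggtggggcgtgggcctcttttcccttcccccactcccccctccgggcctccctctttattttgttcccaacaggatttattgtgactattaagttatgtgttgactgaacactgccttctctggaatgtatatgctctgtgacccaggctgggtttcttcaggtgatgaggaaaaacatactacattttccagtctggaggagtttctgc
Mlxipl, upstream start: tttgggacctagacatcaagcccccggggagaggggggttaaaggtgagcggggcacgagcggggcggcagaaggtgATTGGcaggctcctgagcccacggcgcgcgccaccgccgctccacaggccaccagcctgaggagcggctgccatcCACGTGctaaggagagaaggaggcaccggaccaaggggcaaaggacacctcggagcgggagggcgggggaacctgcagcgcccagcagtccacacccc
Mlxipl, downstream start: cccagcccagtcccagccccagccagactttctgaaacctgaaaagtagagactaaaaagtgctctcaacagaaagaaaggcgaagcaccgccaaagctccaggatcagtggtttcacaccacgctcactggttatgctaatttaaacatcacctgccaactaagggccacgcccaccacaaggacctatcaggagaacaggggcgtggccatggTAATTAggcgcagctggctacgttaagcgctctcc
Pcx: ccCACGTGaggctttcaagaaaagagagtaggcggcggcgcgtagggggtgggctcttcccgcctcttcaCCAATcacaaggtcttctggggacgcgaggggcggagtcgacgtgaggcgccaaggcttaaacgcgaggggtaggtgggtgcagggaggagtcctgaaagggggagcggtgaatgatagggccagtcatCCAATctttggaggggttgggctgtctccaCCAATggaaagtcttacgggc

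The motifs searched on both strands were the TATA box TATAAA, the NF-Y core CCAAT, the E-box CACGTG, the homeodomain core TAATTA, the GATA factor core GATAAG, the forkhead core TGTTTAC and the AP-1 core TGANTCA, and no match overlapped another. CACGTG, which ChREBP with MLX and other E-box factors read, stood 98 to 93 bases before the upstream Mlxipl start and 248 to 243 bases before the Pcx start, and 6.02% of 32851 mouse promoter windows of the same length held it. CCAAT or its reverse complement ATTGG was found 2 times before Slc2a2, once before the upstream Mlxipl start and 3 times before Pcx, against a share of 33.9% of all windows with at least 1 match. Slc2a2 also held GATAAG as its reverse complement CTTATC (6.55% of all windows), and the downstream Mlxipl start held TAATTA (4.84% of all windows). The G6pc2 window held none of the searched letters. The matches given for Pcx are those before its upstream start. The windows before the second starts of G6pc2 and Pcx, not shown here, held none. A match is a description of these letters only. The upstream Mlxipl window had a GC content of 69.2%, against 60.8% for Pcx, 50% for G6pc2 and 47.2% for Slc2a2.

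Library totals lay between 17832949 and 55865759 counts, and levels are given as CPM, each gene's count scaled to library size with TMM factors. All 8 beta cell markers examined, among them Ins1, Ins2, Iapp and Pdx1, had counts in every group, and their summed level was 87488 to 239427 CPM in particle islets, 123558 to 228956 CPM in inflamed islets and 339956 to 358926 CPM in control islets. The libraries within the particle group stood apart from each other. Particle replicate 2 was the highest of its group for alpha cell markers, at 7979 CPM summed, against 480 and 133 in replicates 1 and 3. The same held for delta and PP cell markers (2464 CPM, against 103 and 119) and acinar markers (2752 CPM, against 21.1 and 203). Its alpha and its delta and PP sums lay inside the control ranges (7495 to 27546 and 1813 to 5621 CPM). So did its endothelial sum of 29.5 CPM (28.9 to 74.2 CPM). Acinar markers were uneven in the other groups too. They summed to 2423 CPM in inflamed replicate 3, against 29.6 and 32.2 CPM in replicates 1 and 2. Control replicate 2 held 1245 CPM, against 74.1 and 256 CPM in replicates 1 and 3. For Mafa, a beta cell transcription factor, particle replicate 2 held 1263 CPM, against 74.5 and 50.7 CPM in the other particle libraries. Inflamed islets held 41.6 to 70.2 CPM. The fitted changes, the ratios and the counts of calls in particle islets are therefore also given without that library.

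Exposure to the cytokines lowered all 4 genes, and the falls ranged from 5.87-fold for Pcx to 89.7-fold for G6pc2. Every inflamed library lay below every control library for each of them. At a Benjamini-Hochberg adjusted p under 0.05 in edgeR's quasi-likelihood test over all genes, 4 of 4 genes were called lower, where 19.0% of all tested genes were called lower and 20.7% higher. Groups without overlap on the lower side were also common over all genes, at 28.5%. The RNA is of whole islets, so fewer beta cells and less RNA per beta cell cannot be told apart in any of these values.

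Slc2a2, the glucose transporter, had 9.76, 10.4 and 5.85 CPM in the inflamed libraries, against 398, 493 and 316 CPM in the control libraries. Even the highest inflamed library held a small part of the lowest control level, and the groups were far apart. The fall was 46.6-fold, a log2 fold change of -5.54 (SE 0.957, 95% interval -7.71 to -3.38 without adjustment, adjusted p 0.00235 in edgeR). Its counts in the inflamed libraries were 210, 227 and 315, enough reads for the low levels to be measured.

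G6pc2, the phosphatase, had 15.5, 8.25 and 9.55 CPM in inflamed islets, against 768, 1350 and 869 CPM in control islets. It had the highest level per length of the 4 genes in control islets and the largest fold change with cytokines, with control replicate 2 standing above the other control libraries. Its log2 fold change was -6.49 (SE 1.49, 95% interval -9.92 to -3.05, adjusted p 0.0103 in edgeR). The interval is the widest of the 4, and the adjusted p reached 0.0453 among the alternative fits.

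Mlxipl, the transcription factor, had 99.04, 97.0 and 52.8 CPM in inflamed islets, against 709, 681 and 652 CPM in control islets. Control libraries lay close together, and inflamed replicate 3 was the lowest of the 6 libraries. The fall was 8.21-fold, with a log2 fold change of -3.04 (SE 0.3999, 95% interval -3.92 to -2.16, adjusted p 0.000329 in edgeR).

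Pcx, the carboxylase, had 50.4, 50.5 and 34.3 CPM in inflamed islets, against 265, 263 and 264 CPM in control islets. The control libraries were almost equal, with an SD of 0.767 CPM around a mean of 264 CPM. The fall was 5.87-fold, with a log2 fold change of -2.55 (SE 0.395, 95% interval -3.42 to -1.69, adjusted p 0.000786 in edgeR). Part of the Pcx gene is overlapped on the minus strand by Lrfn4 (GRCm39 chr19:4661813-4665695), which encodes a synaptic adhesion protein. The sources used here do not give whether counting was by strand, so the split of reads between Pcx and Lrfn4 is uncertain. Lrfn4 counts reached up to 136% of the Pcx count in the same library, and Lrfn4 itself had a log2 fold change of -1.39 (adjusted p 0.0195 in edgeR). Antisense noncoding genes over Slc2a2 and Mlxipl were minor, with at most 7.05% and 1.75% of the count of the gene they overlap.

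**Figure D1:**
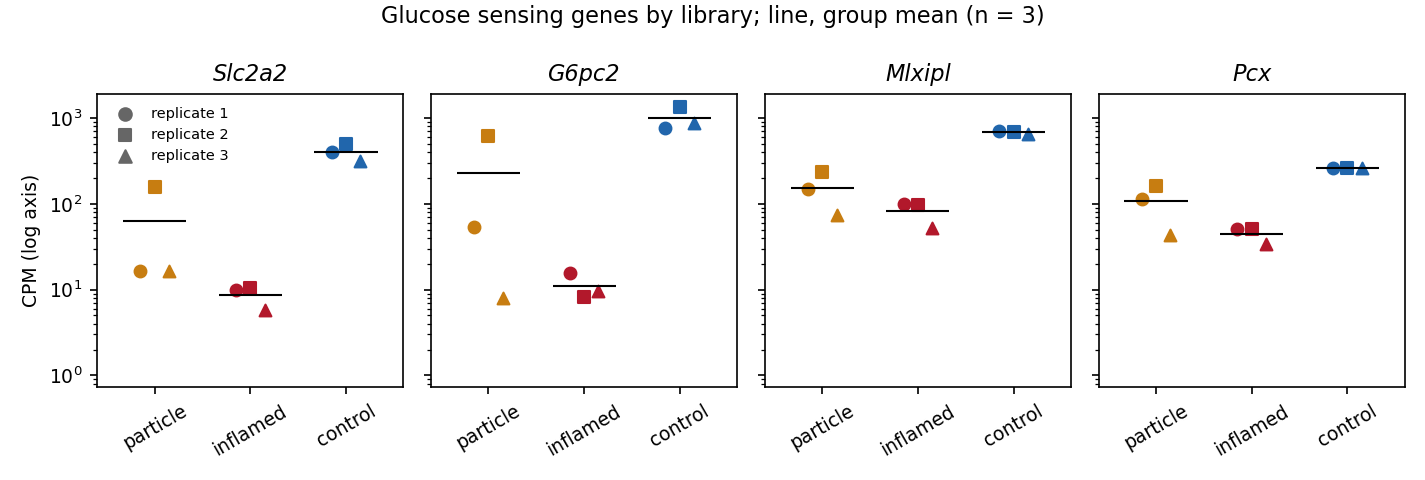
Level of each gene in CPM on a log axis in the 9 libraries, with particle, inflamed and control islets from left to right; points are libraries, with a shape per replicate, and lines are group means. All inflamed points lie below all control points for each gene, and particle replicate 2 is the highest particle point for each gene, reaching 158 CPM for Slc2a2 and 624 CPM for G6pc2.

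The order of the genes by level per length, from the deposited FPKM values (fragments per kilobase of length, with a scale set for each library), differed between inflamed and control islets. In inflamed islets Mlxipl averaged 14.6 ± 4.51 FPKM, Pcx 9.24 ± 1.87 FPKM, G6pc2 5.47 ± 1.83 FPKM and Slc2a2 1.47 ± 0.413 FPKM (SD, n = 3 libraries each). In control islets G6pc2 averaged 511 ± 168 FPKM, Mlxipl 124 ± 4.65 FPKM, Slc2a2 70.7 ± 16.2 FPKM and Pcx 56.1 ± 0.707 FPKM (SD, n = 3 libraries each). The ranges of neighbours in the inflamed order overlapped for Mlxipl and Pcx and for Pcx and G6pc2, and those of Slc2a2 and Pcx overlapped in control islets. G6pc2 was thus the most abundant of the 4 per length in every control library, and the least abundant but for Slc2a2 in every inflamed library.

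The changes differed in size between the genes. Between inflamed and control islets the log2 ratio of Slc2a2 to Pcx differed by -2.98, and that of G6pc2 to Pcx by -3.92. The SD of the libraries within a group, pooled over the 2 groups, was 0.248 and 0.463 for these ratios, and SD has this meaning for the other ratios. The log2 ratio of Mlxipl to Pcx differed by -0.52 (SD 0.143), and that of Slc2a2 to G6pc2 by 0.94 (SD 0.467). Relative to Mlxipl, the difference was -2.47 for Slc2a2 and -3.40 for G6pc2, so all but the ratio of Slc2a2 to G6pc2 were lower in inflamed islets. For all 6 pairs the inflamed and control ratios did not overlap, and each had an exact permutation p of 0.1 (two-sided; 0.1 after adjustment over the 6 pairs), the smallest that 3 libraries against 3 allow. The transporter and the phosphatase had the larger changes, and the transcription factor and the carboxylase the smaller ones.

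Insulin RNA was itself lower with cytokines, at 18.8%, 13.0% and 21.2% of all counts in inflamed islets, against 28.8%, 29.2% and 28.5% in control islets. Levels per 1000 insulin counts (Ins1 plus Ins2) were therefore compared as well. Slc2a2 had 0.0506, 0.0900 and 0.0265 counts per 1000 insulin counts in inflamed islets, against 1.24, 1.59 and 0.964 in control islets. G6pc2 had 0.0805, 0.0714 and 0.0433, against 2.38, 4.36 and 2.65 in control islets. On this scale too none of the 4 genes overlapped between the groups. The share of all genes without overlap was not computed on this scale, and on the CPM scale it was 28.5% on the lower side. Mlxipl had 0.513, 0.838 and 0.240 per 1000 insulin counts in inflamed islets, against 2.20, 2.20 and 1.99 in control islets, and Pcx had 0.261, 0.436 and 0.155 against 0.823, 0.850 and 0.805 in control islets. The log2 differences per insulin count were -4.65 for Slc2a2, -5.59 for G6pc2, -2.18 for Mlxipl and -1.66 for Pcx, each with an exact permutation p of 0.1 (two-sided), again the smallest possible. Set against Iapp, the amylin transcript, the differences were smaller, at -3.84, -4.78, -1.37 and -0.86 in the same gene order. Of the 8 beta cell markers 7 were called lower in inflamed islets, against 19.0% of all tested genes, with a median log2 fold change of -2.91. Ins2 (-0.64, not called), Iapp (-1.72) and Ins1 (-1.80) fell least of these markers. Nkx6-1 (-2.55), Slc30a8 (-3.27), Pdx1 (-3.96), Mafa (-5.68) and Ucn3 (-6.06) fell more. Falls larger than that of insulin were thus not particular to the 4 genes.

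Markers of other cell types moved in the same comparison. The summed level of 7 alpha cell markers was 139 to 515 CPM in inflamed islets, against 7495 to 27546 CPM in control islets, with 5 of 7 called lower. Endothelial markers summed to 4.93 to 9.06 CPM in inflamed islets, against 28.9 to 74.2 CPM in control islets, with 5 of 8 called lower. Delta and PP cell markers summed to 154 to 688 CPM in inflamed islets, against 1813 to 5621 CPM in control islets, with 1 of 3 tested genes called lower. Macrophage markers were higher, at 977 to 1036 CPM summed over 9 genes in inflamed islets, against 306 to 376 CPM in control islets, with 7 of 8 tested genes called higher. Of acinar markers 1 of 8 tested genes was called lower (Bhlha15, -5.36). The others were not called and had mixed signs, from -4.08 for Cel to 3.21 for Ptf1a. Of stellate cell and pericyte markers 2 of 8 were called lower, and of duct markers 1 of 5 was called lower and 1 higher. Over all tested genes 19.0% were called lower and 20.7% higher. Liver and fat also express some of the 4 genes. The 6 hepatocyte markers summed to 30.1 to 140 CPM in particle, 10.995 to 24.2 CPM in inflamed and 34.7 to 60.6 CPM in control islets, most of it Tat, which encodes tyrosine aminotransferase and reached 139.6 CPM in particle replicate 1. Alb, which encodes albumin, was at most 1.66 CPM in any library, and the 5 adipocyte markers summed to at most 1.57 CPM. The part of other cell types in the falls of the 4 genes was not tested.

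Particle islets had more of each gene on average than inflamed islets, but none of the 4 differences passed the test, and no gene of the 17276 did (0% called higher and 0% called lower by edgeR; 2603 genes had an unadjusted p under 0.05, and DESeq2 called 782 genes). The particle libraries varied widely, and replicate 2 was the highest for each gene.

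For Slc2a2 the particle libraries held 16.3, 158 and 16.3 CPM, against 9.76, 10.4 and 5.85 CPM in inflamed islets. All 3 particle libraries were above all inflamed libraries, a pattern seen on the higher side in 8.87% of tested genes, and 1 of the 4 genes showed it. The log2 fold change was 2.88 (SE 0.851, 95% interval 0.96 to 4.81, adjusted p 0.185 in edgeR). Without particle replicate 2 it was 0.92 (adjusted p 0.341).

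For G6pc2 the particle libraries held 53.0, 624 and 7.93 CPM, against 15.5, 8.25 and 9.55 CPM in inflamed islets. Replicates 1 and 2 stood above all inflamed libraries and replicate 3 below all of them; the groups overlapped. The log2 fold change was 4.36 (SE 1.35, 95% interval 1.25 to 7.48, adjusted p 0.206 in edgeR), and 1.47 (adjusted p 0.463) without particle replicate 2.

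For Mlxipl the particle libraries held 149, 235 and 74.1 CPM, against 99.04, 97.0 and 52.8 CPM in inflamed islets. Replicate 3 lay inside the inflamed range and the other particle libraries above it. The log2 fold change of 0.88 was the smallest of the 4 (SE 0.373, 95% interval 0.06 to 1.70, adjusted p 0.297 in edgeR), and it was 0.44 (adjusted p 0.713) without particle replicate 2.

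For Pcx the particle libraries held 114, 162 and 42.8 CPM, against 50.4, 50.5 and 34.3 CPM in inflamed islets. As with Mlxipl, replicate 3 lay inside the inflamed range. The log2 fold change was 1.24 (SE 0.379, 95% interval 0.41 to 2.08, adjusted p 0.180 in edgeR), and 0.81 (adjusted p 0.463) without particle replicate 2. Lrfn4, whose reads may be shared, had a log2 fold change of 0.18 (adjusted p 0.878).

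The outcome also depended on particle replicate 3, the lowest particle library for G6pc2, Mlxipl and Pcx. Without it, 3 of the 4 genes were called higher in particle than in inflamed islets, with log2 fold changes of 3.34 for Slc2a2 (adjusted p 0.0360), 4.94 for G6pc2 (adjusted p 0.0174) and 1.62 for Pcx (adjusted p 0.0140), and 942 genes were called in all, with 3.56% of tested genes called higher. Over the alternative fits the adjusted p of this comparison ranged between 0.0360 and 0.415 for Slc2a2, between 0.0174 and 0.478 for G6pc2 and between 0.0140 and 0.463 for Pcx. DESeq2 on all 9 libraries called the same 3 genes higher, with adjusted p of 0.0451, 0.0184 and 0.0363, where it called 2.52% of tested genes higher.

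**Figure D2:**
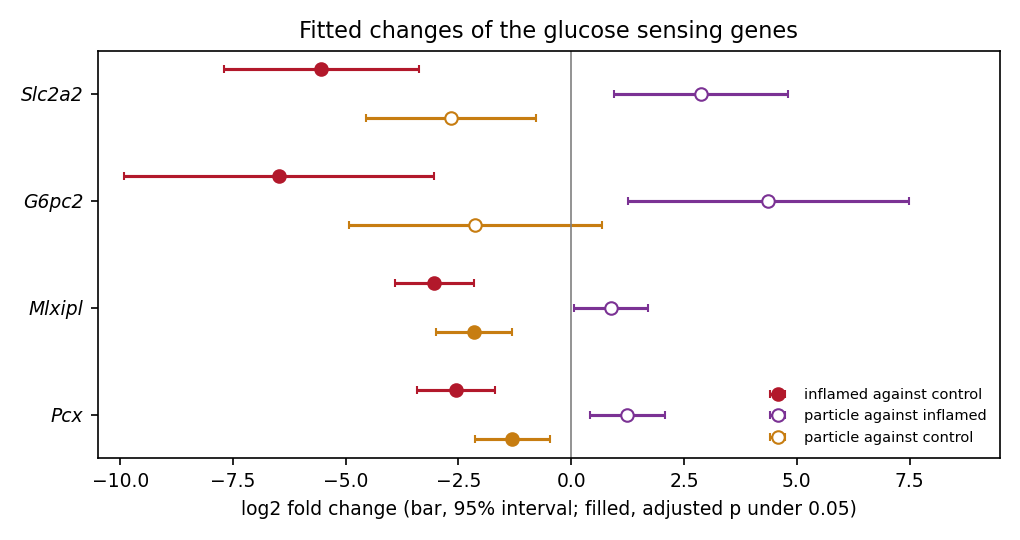
Log2 fold change of each gene from edgeR with its unadjusted 95% interval, for each of the 3 comparisons; points are estimates and lines intervals. The inflamed against control intervals lie below 0 for all 4 genes, and for G6pc2 the particle against control interval spans 0, from -4.93 to 0.69.

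Compared with control islets, particle islets had less of all 4 genes in every library, a pattern of no overlap seen on the lower side in 20.6% of tested genes. Mlxipl and Pcx passed the test, 2 of 4, where 5.92% of tested genes were called lower and 11.4% higher. With library totals in place of TMM factors the median of all genes moved by 0.271 on the log2 scale. The share of called genes that were higher was then 84.2%, against 65.7% with TMM. The number of the 4 genes called stayed at 2, where 3.46% of tested genes were called lower. This comparison shares its particle libraries with the one before it and its control libraries with the first, so the 3 sets of values are not independent.

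Slc2a2 had 16.3, 158 and 16.3 CPM in particle islets, against 398, 493 and 316 CPM in control islets, a log2 fold change of -2.66 (SE 0.834, 95% interval -4.55 to -0.77) that missed the threshold with an adjusted p of 0.0579 in edgeR. G6pc2 had 53.0, 624 and 7.93 CPM in particle islets, against 768, 1350 and 869 CPM in control islets, and its log2 fold change of -2.12 (SE 1.22, 95% interval -4.93 to 0.69) had an adjusted p of 0.265. Replicate 2 came nearest to the control range for both genes. Mlxipl fell to 149, 235 and 74.1 CPM in particle islets, against 709, 681 and 652 CPM in control islets, by 2.16 on the log2 scale (SE 0.386, 95% interval -3.00 to -1.31, adjusted p 0.00431). Pcx fell to 114, 162 and 42.8 CPM in particle islets, against 265, 263 and 264 CPM in control islets, by 1.31 on the log2 scale (SE 0.379, 95% interval -2.14 to -0.48, adjusted p 0.0375). Lrfn4 had a log2 fold change of -1.21 here (adjusted p 0.0602). Without particle replicate 2 all 4 genes were called lower than in control islets, with log2 fold changes of -4.67 for Slc2a2 (adjusted p 5.80e-06), -5.07 for G6pc2 (adjusted p 0.00129), -2.64 for Mlxipl (adjusted p 0.000656) and -1.78 for Pcx (adjusted p 0.00570). In that fit 11.8% of all tested genes were called lower. The Pcx call was lost in 6 of the 9 fits that leave out 1 library (any of the control libraries, inflamed replicate 1 or 2, or particle replicate 1), with adjusted p between 0.0507 and 0.0920.

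Per 1000 insulin counts, particle islets overlapped control islets for G6pc2, Mlxipl and Pcx, where on the CPM scale no gene did. Slc2a2 had 0.217, 0.719 and 0.116 per 1000 insulin counts in particle islets, against 0.0265 to 0.0900 in inflamed and 0.964 to 1.59 in control islets, and overlapped with neither. G6pc2 had 0.705, 2.84 and 0.0562, so that replicate 2 lay inside the control range of 2.38 to 4.36 and replicate 3 inside the inflamed range of 0.0433 to 0.0805. Mlxipl had 1.99, 1.07 and 0.525 in particle islets, against 0.240 to 0.838 in inflamed and 1.99 to 2.20 in control islets. Replicate 1 thus stood at the lower end of the control range for Mlxipl, and for Pcx, at 1.52 against 0.805 to 0.850 in control islets, above it. Particle replicate 1 also had the lowest insulin share of the 9 libraries, 8.55% of all counts, against 21.6% and 16.1% in the other particle libraries, and the part of that share in its ratios was not tested. The log2 difference per insulin count between particle and inflamed islets was 2.41 for Slc2a2 (exact permutation p 0.1, two-sided), 2.94 for G6pc2 (p 0.3), 1.14 for Mlxipl (p 0.2) and 1.42 for Pcx (p 0.2). Between particle and control islets it was -2.24, -2.65, -1.04 and -0.24 in the same gene order, with exact permutation p of 0.1, 0.3, 0.2 and 0.7. Without particle replicate 2 the differences from inflamed islets were 1.68 for Slc2a2, 1.66 for G6pc2, 1.12 for Mlxipl and 1.38 for Pcx, and those from control islets -2.97, -3.92, -1.06 and -0.28. Leaving out each library in turn gave 1.66 to 4.49 for G6pc2 against inflamed islets, and -3.92 to -1.09 for G6pc2 and -1.51 to -0.54 for Mlxipl against control islets. For Pcx against control islets the sign itself changed, with -0.80 without particle replicate 1 and 0.36 without particle replicate 3. Without particle replicate 1 the differences from inflamed islets were 0.67 for Mlxipl and 0.86 for Pcx. The weakest values against control islets for G6pc2 and Mlxipl were those without particle replicate 3.

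**Figure D3:**
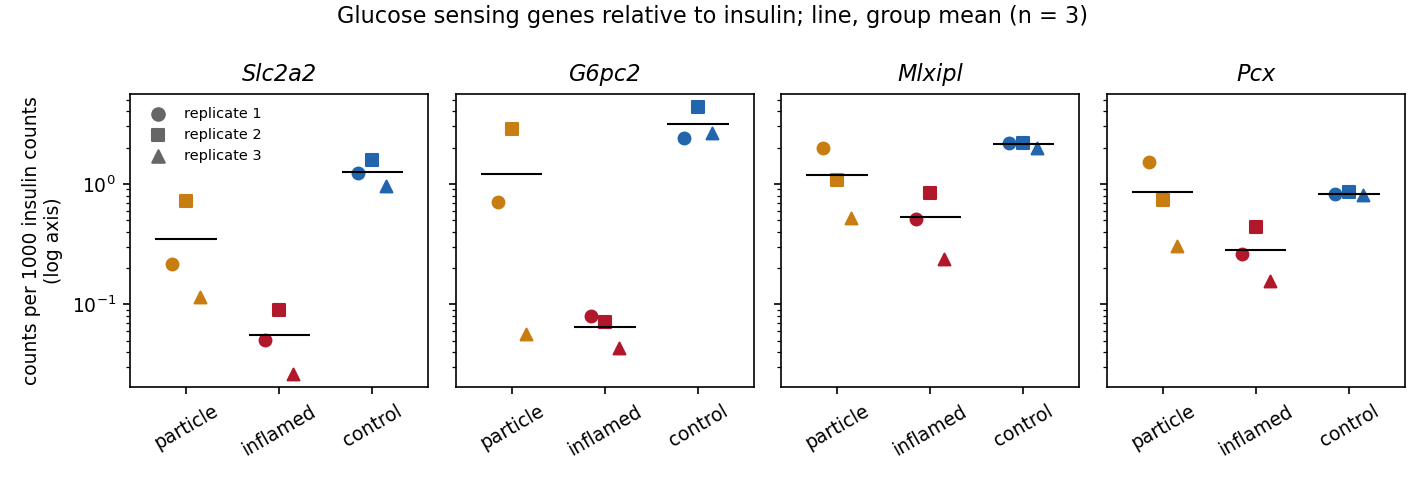
Counts of each gene per 1000 insulin counts (Ins1 plus Ins2) on a log axis, by library, with particle, inflamed and control islets from left to right. Inflamed points lie below control points for all 4 genes, and the particle points of Pcx run from 0.303 to 1.52, on both sides of the control points.

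Between the genes, the ratios in particle islets overlapped those in inflamed islets for all 6 pairs (exact permutation p, adjusted over the 6 pairs, 0.48 to 0.60). Against control islets, the particle ratios were apart for 2 of 6 pairs. The log2 ratio differed by -1.998 for Slc2a2 to Pcx (pooled within-group SD 1.01) and by -0.80 for Mlxipl to Pcx (SD 0.151). Each had an exact permutation p of 0.1 and an adjusted p of 0.3. Without particle replicate 2 these differences were -2.69 and -0.78, and without particle replicate 1 that of Slc2a2 to Pcx was -1.30. The ratio of Slc2a2 to G6pc2 had no steady sign in particle islets, at -0.53 against inflamed islets with all libraries and 0.02 without particle replicate 2, and at 0.41 against control islets with all libraries and -0.55 without particle replicate 3. Without particle replicate 2 the other 5 ratios against inflamed islets lay between -0.26 and 0.56. The order of the levels per length also differed among particle libraries. In replicate 2 G6pc2 stood first at 303 FPKM, as in control islets, followed by Mlxipl at 40.6, Pcx at 32.7 and Slc2a2 at 26.3 FPKM. In replicate 3 the order was that of inflamed islets, with Mlxipl at 12.8, Pcx at 8.63, G6pc2 at 3.85 and Slc2a2 at 2.72 FPKM. Replicate 1 held Mlxipl at 26.5, G6pc2 at 26.3, Pcx at 23.6 and Slc2a2 at 2.78 FPKM, so that its first 3 genes were near each other.

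Likeness of pattern was measured as the root mean square difference of centred log2(CPM + 0.5) values over the 9 libraries, among 10255 protein-coding genes averaging at least 5 CPM. It is a description with no test, and all genes share the libraries and the spread within the particle group. The 5 genes most like Slc2a2 were Trpm5 (0.39), Mafa (0.45), Ffar3 (0.51), Ddc (0.52) and Kcnab3 (0.55). For G6pc2 they were Ucn3 (0.55), Mafa (0.68), Kcnk16 (0.79), Ttr (0.80) and Ffar3 (0.82). Mafa and Ffar3 stood in both lists. Mlxipl was nearest to Hdac6 (0.14), Dagla (0.19), Carmil3 (0.19), Dpp4 (0.21) and Hcn4 (0.21), and Pcx to Shank1 (0.12), Tbc1d16 (0.14), Kif12 (0.16), Ripply3 (0.17) and Camk2b (0.17). Among the 4 genes themselves Mlxipl and Pcx were the closest pair at 0.36, followed by Slc2a2 and G6pc2 at 0.92. The most distant pair was G6pc2 and Pcx at 1.93. Values were centred but not scaled, so the measure also takes in the size of a gene's changes. The centred log2 values spanned 6.28 for Slc2a2, 7.32 for G6pc2, 3.73 for Mlxipl and 2.93 for Pcx.

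Other genes of glucose use were called in both directions in inflamed against control islets, at shares near those of all genes. Over 6 lists of other genes of glucose transport and metabolism, which share some genes, 94 of 98 genes were tested. In inflamed against control islets 19 were called higher and 24 lower, where 20.7% of all tested genes were called higher and 19.0% lower, with a median log2 fold change of -0.03, against 0.05 over all tested genes. None was called in particle against inflamed islets, and 12 were called higher and 14 lower in particle against control islets, where 11.4% of all tested genes were called higher and 5.92% lower. Without particle replicate 2, 0 were called between particle and inflamed islets and 41 between particle and control islets, 15 higher and 26 lower. Among the 41 were all 26 called with every library, each in the same direction. In that fit 13.4% of all tested genes were called higher and 11.8% lower in particle than in control islets.

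Among glucose transporters, 3 of 10 were called higher and 3 lower with cytokines, where 20.7% of all tested genes were called higher and 19.0% lower. Slc2a1, which encodes the widely expressed transporter GLUT1, averaged 203 ± 54.2 CPM in particle, 210.1 ± 10.5 CPM in inflamed and 35.7 ± 20.5 CPM in control islets (SD, n = 3 each), a log2 fold change of 2.56 in inflamed against control islets (adjusted p 0.000473). It thus moved opposite to Slc2a2, and per length (FPKM) it was above Slc2a2 in all 6 cytokine-treated libraries and below it in all 3 control libraries. Slc2a6 was also higher (2.89, adjusted p 0.000643), and Slc2a5, a fructose transporter, was lower (-2.56, adjusted p 0.000290). Against control islets, particle islets had higher Slc2a1 (2.51), Slc2a6 (1.96) and Slc2a9 (1.59) and lower Slc2a5 (-1.38), all called. Without particle replicate 2 these values were 2.56, 2.15, 1.67 and -1.93 in the same gene order, all still called. With all libraries, Slc2a5 had the smallest adjusted p of this list in particle against inflamed islets, at 1.18 (adjusted p 0.154, not called). Without particle replicate 2 its log2 fold change was 0.68.

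Next to G6pc2, in the list of hexose phosphorylation and glucose-6-phosphate handling, 4 of 11 genes were called higher and 1 lower in inflamed against control islets. Over all tested genes 20.7% were called higher and 19.0% lower. The list leaves out glucokinase, so it does not describe glucose phosphorylation as a whole. Hk3 and Hk2 encode hexokinases of high glucose affinity. Hk3 averaged 29.7 ± 10.1 CPM in particle, 76.0 ± 16.3 CPM in inflamed and 2.78 ± 0.888 CPM in control islets, with a log2 fold change of 4.77 (adjusted p 8.43e-06) in inflamed against control islets, and of 3.42 (adjusted p 7.13e-05) in particle against control islets. Hk2 had log2 fold changes of 4.42 (adjusted p 0.000522) and 2.88 (adjusted p 0.0101) in the same comparisons. Hk3 is also expressed by macrophages, whose summed markers were 320 to 477 CPM in particle, 977 to 1036 CPM in inflamed and 306 to 376 CPM in control islets. Their part in the level of Hk3 was not tested. Slc37a4, the carrier that brings glucose-6-phosphate to phosphatases of the endoplasmic reticulum such as that of G6pc2, was the gene called lower in both comparisons, at -1.87 (adjusted p 0.00238) and -1.13 (adjusted p 0.0482). Without particle replicate 2, the particle against control values were 3.63 for Hk3, 2.98 for Hk2 and -1.62 for Slc37a4, all called. Slc37a1 was then also called higher (0.71, adjusted p 0.0496 in edgeR). With all libraries, Hk3 was nearest to a call in particle against inflamed islets, at -1.36 (adjusted p 0.121, not called).

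Of the list of partners and known targets of ChREBP, 4 of 20 genes were called higher and 9 lower in inflamed against control islets. Their median log2 fold change was -0.75. Over all tested genes 20.7% were called higher and 19.0% lower in this comparison. Mlx, the DNA-binding partner of ChREBP, and Mlxip, its paralogue MondoA, were not called, at -0.11 (adjusted p 0.614) and 0.03 (adjusted p 0.953), against -3.04 for Mlxipl. The targets did not share a direction. Acly, the enzyme of citrate cleavage, was lower (-2.85, adjusted p 0.000964), Me1, cytosolic malic enzyme, was higher (1.31, adjusted p 0.00130), and the paired glucose-response genes Txnip and Arrdc4 differed in sign. Arrdc4 had a log2 fold change of 3.91 (adjusted p 7.31e-05), and Txnip of -1.84 (adjusted p 0.00146). In particle against control islets 4 were called higher and 5 lower, where 11.4% of all tested genes were called higher and 5.92% lower. Arrdc4 (2.83), Me1 (1.34) and Txnip (-1.79) were called in the same directions as in inflamed islets. Without particle replicate 2 these 3 values were 3.11, 1.51 and -2.26, and Acaca, Scd2, Gpd1 and Tkfc were also called lower. In that fit 13.4% of all tested genes were called higher and 11.8% lower. With all libraries, Thrsp had the smallest adjusted p of this list in particle against inflamed islets (0.154, not called). It had 11, 43 and 9 counts in particle islets, against 2, 0 and 0 counts in inflamed islets.

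Around Pcx, 4 of 9 biotin carboxylases and biotin supply genes were called lower in inflamed against control islets and none higher. Over all tested genes 19.0% were called lower. Mccc2 and Pccb, subunits of the carboxylases of leucine and propionate breakdown, had log2 fold changes of -2.15 (adjusted p 0.000804) and -1.87 (adjusted p 0.00124), and Pcca, the partner of Pccb, of -1.07 (adjusted p 0.00304). In the list of pyruvate entry and pyruvate cycling 4 of 23 were called higher and 4 lower, with Pdk2, a kinase that inhibits pyruvate dehydrogenase, at -1.89 (adjusted p 0.00482). Lower glycolysis with its NADH shuttles was also split, with 5 of 27 genes called higher and 6 lower. All tested genes were split as well, with 20.7% called higher and 19.0% lower. Slc16a1, the lactate and pyruvate carrier MCT1 that beta cells normally keep very low, averaged 7.46 ± 3.75 CPM in particle, 12.4 ± 2.87 CPM in inflamed and 0.450 ± 0.139 CPM in control islets (4.76 in inflamed against control islets, adjusted p 5.49e-05). Pfkfb3, which makes an activator of glycolysis, was higher (3.53, adjusted p 0.000254), and Pfkm, a phosphofructokinase subunit, was lower (-2.06, adjusted p 0.000498). In particle against control islets 1 of 9 biotin genes was called lower (Pccb, -1.02, adjusted p 0.0431). Of 23 pyruvate genes 1 was called higher and 2 lower, and of 27 glycolysis genes 3 higher and 4 lower. The shares over all tested genes were 11.4% higher and 5.92% lower with every library, and 13.4% and 11.8% without particle replicate 2. Without particle replicate 2, the biotin genes Mccc2 (-1.22, adjusted p 0.0271 in edgeR) and Acaca (-1.07, adjusted p 0.0213) were also called lower. Pck2, Slc25a1, Slc25a10, Idh1 and Pdk4 of the pyruvate list were then also called lower and Me2 higher. Of the glycolysis list Gpd1, Pfkfb2 and Aldoc were then also called lower and Pfkp higher. In particle against inflamed islets the smallest adjusted p of these lists belonged to Mccc2 (1.19, adjusted p 0.158), Slc25a11, the oxoglutarate carrier (-0.55, adjusted p 0.187), and Ldha, lactate dehydrogenase A (-1.62, adjusted p 0.131), none called.

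**Figure D4:**
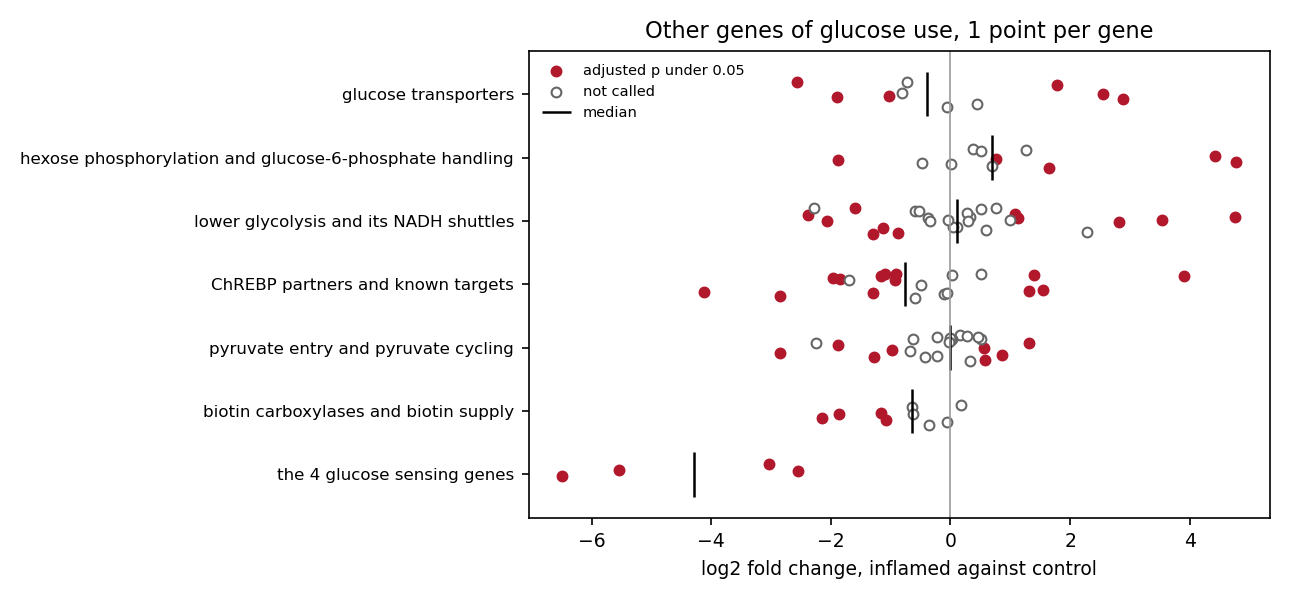
Log2 fold change of each tested gene of the 6 lists, by list, in inflamed against control islets, with the 4 glucose sensing genes in the bottom row; each point is a gene, filled points passed an adjusted p of 0.05 and black lines are medians. Called genes lie on both sides of 0 in each list except the biotin list, where the 4 called genes are all lower, and the 4 glucose sensing genes lie between -6.49 and -2.55.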

How the data were processed

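RNA of 9 islet libraries was analysed, and groups and replicate numbers follow the sample titles. The untreated columns were matched as the only set of 3 without a treatment word in their names. The deposited counts are whole reads per gene, not normalized; HTSeq, DESeq2 and build GRCm39 are named, without versions, per the submitters' processing notes. The deposited FPKM values equal those counts over gene length, times 1 factor for each library. Counts were tested with edgeR 4.0.16 (R 4.3.3): filterByExpr with a minimum count of 10, TMM factors, robust quasi-likelihood fits of all 9 libraries, and Benjamini-Hochberg adjustment over 17276 genes; standard errors are the log2 fold change over the root of F. The code was tested on simulated data. Ratios used exact permutation tests. Alternatives included DESeq2 1.42.0 and limma 3.58.1 on counts and on log2(FPKM + 1) or log2(FPKM + 0.1). The 4 genes and all lists were chosen with earlier results of these data known. Named list genes are up to 3 called genes per list and comparison with the smallest adjusted p, or 1 uncalled gene where particle against inflamed had no call, and the 5 genes of most similar pattern per member; examples outside that rule were chosen after their values were seen. Replicates within groups differed by far more than sampling noise. Promoter windows are from RefSeq on GRCm38.p6 and were not converted.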

Additional observations from a re-analysis of the deposited data

How the results depend on the processing

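All 4 genes kept their call as lower in inflamed than in control islets under each of the 21 alternatives tried. In those fits 11.1% to 22.9% of all tested genes were called lower. No fitted log2 fold change of the 4 genes changed sign in any comparison. Ratios that passed no test did change sign with 1 library left out: Pcx per insulin count in particle against control islets ranged over -0.80 to 0.36, and the log2 ratio of Slc2a2 to G6pc2 over -1.49 to 0.02 in particle against inflamed and over -0.55 to 0.96 in particle against control islets. The comparison of particle with inflamed islets depended on the fit. Of all genes, 0 were called with edgeR on all libraries, 1 with library totals in place of TMM factors, 221 with no count filter, 782 with DESeq2, 15 with limma-voom, 34 with limma on log2(FPKM + 0.1) and between 0 and 942 when 1 library was left out. Of the 4 genes, 0 were called in that fit, 3 with DESeq2 (log2 fold changes of 2.85 for Slc2a2, 4.34 for G6pc2 and 1.23 for Pcx) and between 0 and 3 when 1 library was left out, with log2 fold changes of 0.92 to 3.34 for Slc2a2, 1.47 to 4.94 for G6pc2 and 0.81 to 1.62 for Pcx. Of the other glucose genes, 0 were called in that fit, 2 with no count filter, 6 with DESeq2 and between 0 and 7 with 1 library left out.

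For particle against control islets, the number of the 4 genes called was 2, against 1 when only those groups were fitted. It was 4 with limma on log2(FPKM + 1) and between 1 and 4 with 1 library left out. In the same order 5.92%, 6.15%, 9% and between 1.24% and 11.8% of all tested genes were called lower. Slc2a2 passed the threshold with DESeq2 (-2.74), limma-voom (-3.49), dispersions that are not robust (-2.66), limma on log2(FPKM + 1) (-3.28) and on log2(FPKM + 0.1) (-3.54), and ranged over -4.67 to -2.20 with 1 library left out. G6pc2 passed with limma on log2(FPKM + 1) (-3.85) and ranged over -5.07 to -1.55, and Pcx lost its call when only those groups were fitted (-1.30) and ranged over -1.78 to -0.93. The number of all genes called was 1115 to 4545 and of other glucose genes 13 to 41 with 1 library left out. With Iapp in place of insulin the log2 differences per count in inflamed against control islets were -3.84 for Slc2a2, -4.78 for G6pc2, -1.37 for Mlxipl and -0.86 for Pcx, and that of Mlxipl in particle against inflamed islets was 0.19. With library totals the median of all genes in inflamed against control islets moved by 0.177 on the log2 scale, and the share of called genes that were higher was 61.9%, against 52.1% with TMM. Apart from what the exclusions themselves change, the cause of these differences was not tested.

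Replicate numbers are shared between groups, but same-numbered libraries did not deviate together (correlations of -0.224 to 0.151), and not every library correlated best with its own number, so they were not taken as pairs. With a replicate block 6116 genes were called between inflamed and control islets, 0 between particle and inflamed islets and 2598 between particle and control islets, against 6842, 0 and 2983 without it. The block left 4, 0 and 3 of the 4 genes called, the added call being Slc2a2 in particle against control islets (-3.33, adjusted p 0.0128; over all alternatives 5.80e-06 to 0.189). With 3 libraries a group and the spread of the particle libraries, intervals of the particle comparisons are wide.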
